A study of Caenorhabditis elegans with 2 samples.

Results

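The genes that set the sexual fate of Caenorhabditis elegans germ cells, here called the switch genes, were examined for peaks of the chromatin protein HMG-1.2. They were mog-1, mog-4, mog-5, fem-3, fog-1, fog-2, fog-3, gld-1, fbf-1 and tra-2, 10 of 19973 annotated protein-coding genes on the nuclear chromosomes. The genes were chosen by function and by the signal of mog-4 in the conservative peak list, where it had the sixth highest value, so the values at these genes are given as a description and were not tested. The data come from chromatin immunoprecipitation with sequencing (ChIP-seq), which recovers the DNA that a protein is fixed to. Whole young adults, aged 65 h, carried hmg-1.2 tagged at its own locus with TY1, EGFP and 3xFLAG by CRISPR (allele st12210, strain RW12210), and an antibody to GFP was used per the description in the labels, whose antibody field names hmg-1.2. All animals came from this 1 tagged strain, hatched from bleached eggs and starved as first-stage larvae. The 2 samples were biological replicates, 1 and 2 in the labels, of a single condition. Control libraries were not analysed here. Peaks from whole animals do not tell the germline from other tissues, and the lists hold no expression values against which a tissue could be checked.

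In the hermaphrodite germline, sperm are made first and oocytes afterwards. FOG-1 and FOG-3 direct germ cells to the sperm fate, and FEM-3 is needed for that fate upstream of them. TRA-2 is a membrane protein that opposes the FEM proteins, and GLD-1, with FOG-2, represses tra-2 mRNA so that sperm can form. The change to oocytes needs fem-3 mRNA to be repressed. FBF-1, a Pumilio-type RNA-binding protein, binds that mRNA, and the MOG proteins are also required. MOG-1, MOG-4 and MOG-5 are DEAH-box RNA helicases related to those that drive the steps of pre-mRNA splicing.

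Each gene was searched from 2000 bp upstream of its annotated start to its annotated end, and a peak was counted when at least 1 bp lay in this window. The authors deposited 4 thresholded peak lists. Over both replicates there is a conservative list of 4149 peaks and a second, longer list of 6058 peaks. Replicate 1 has its own list of 3340 peaks and replicate 2 its own of 5333. The signal of a peak is the authors' own value, on a scale that the sources used here do not state, and is compared only within a list. The read depth behind the lists is unknown, so the different list lengths are not read as a biological difference, and a missing peak is a peak not detected at this depth.

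The sequences under the 3 peaks found at switch genes are shown first because they are the only ones that any thresholded list holds in the 10 windows. All 3 lay upstream of a mog gene. They are given 5′ to 3′ in the direction of that gene, in the ce11 (WBcel235) build, as read from the RefSeq genome, and parts inside annotated genes were left out. The mog-4 stretch is chrII:14561709-14562008 on the minus strand, 150 bases to either side of the conservative summit. The mog-5 stretch is the whole conservative peak, chrII:5398922-5399126 on the plus strand. In both, capitals mark the summit, the base of highest signal, with 10 bases on either side. The mog-1 stretch is chrIII:9956216-9956472 on the minus strand, around the summit in the longer list, and capitals there mark matches of GAGAGA on either strand.
mog-4: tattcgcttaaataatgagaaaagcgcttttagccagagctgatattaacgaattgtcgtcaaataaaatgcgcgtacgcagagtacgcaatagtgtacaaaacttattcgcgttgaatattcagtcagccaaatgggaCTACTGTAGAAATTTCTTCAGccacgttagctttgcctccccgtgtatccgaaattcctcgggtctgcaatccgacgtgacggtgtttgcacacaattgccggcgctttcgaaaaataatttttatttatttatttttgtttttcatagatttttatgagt
mog-5: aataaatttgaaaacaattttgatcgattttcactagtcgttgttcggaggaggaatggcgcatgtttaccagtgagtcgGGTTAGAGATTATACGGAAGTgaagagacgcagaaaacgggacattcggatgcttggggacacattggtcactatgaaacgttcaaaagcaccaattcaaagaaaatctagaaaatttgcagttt
mog-1: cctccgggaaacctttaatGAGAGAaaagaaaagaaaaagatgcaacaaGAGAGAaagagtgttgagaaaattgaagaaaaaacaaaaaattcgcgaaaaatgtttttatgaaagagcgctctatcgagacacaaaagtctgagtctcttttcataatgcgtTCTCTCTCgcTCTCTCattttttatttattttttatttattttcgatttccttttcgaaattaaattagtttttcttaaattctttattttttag

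Peaks were found upstream of mog-4, mog-5 and mog-1, and the windows of the other 7 switch genes held no peak of any thresholded list. The conservative list had a peak at 2 of the 10 genes, mog-4 and mog-5. Over all protein-coding genes 20.2% (4038) had a conservative peak in the same kind of window, so the share among the switch genes is near the background and is no result about the set. The longer list had a peak at 3 of the 10, against 27.4% of all protein-coding genes. Replicate 1's own list had a peak at 1 of the 10, against 16.2%, and replicate 2's own list at 3 of the 10, against 25.8%. The windows ran from 3357 to 12290 bp with a median of 5399 bp. Among the 13066 protein-coding genes with windows in that length range, 21.1% had a conservative peak. The switch gene windows held only 2 conservative peaks, which is 0.301 per 10 kb. The windows of all protein-coding genes held 0.507 per 10 kb, with a peak counted again for each gene whose window it touched.

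**Figure D1:**
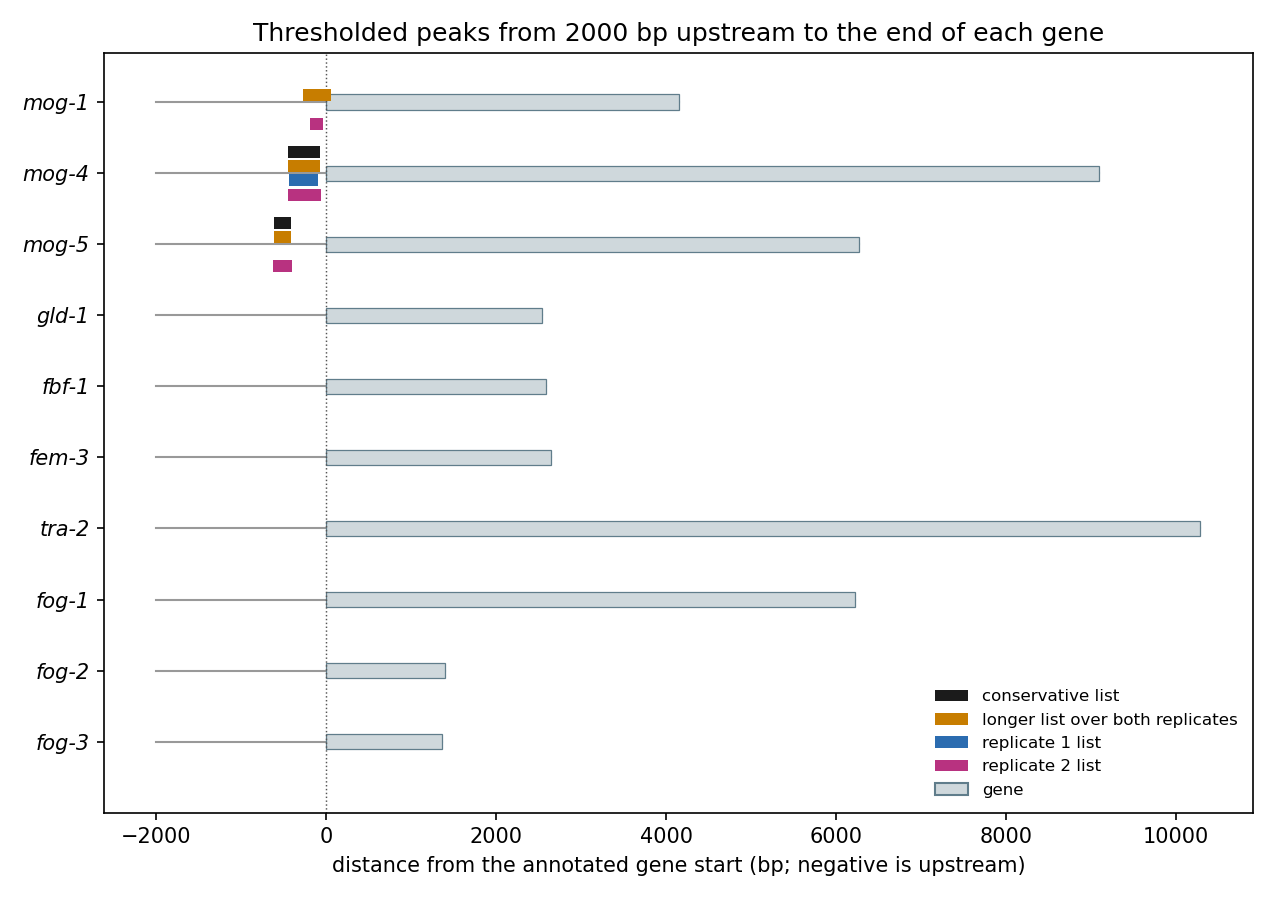
Each row is 1 switch gene, with distance from its annotated start in bp on the x axis, a grey bar for the gene and a line for the 2000 bp before it; coloured bars are the peaks of the 4 thresholded lists, drawn to scale. The mog-4 peak is in all 4 lists, that of mog-5 in 3, that of mog-1 in 2, and the other 7 rows are empty.

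The peak of mog-4 was the only one at a switch gene that every thresholded list contained. That is 1 of the 10 genes, and 13.8% of all protein-coding genes had a peak of all 4 lists in their window, so the count is near the background. The gene (WBGene00003392) lies on the minus strand of chromosome II, 14552504 to 14561599, and the conservative peak lies at 14561669 to 14562050 with its summit at 14561859. The summit is thus 260 bp upstream of the annotated start, and the peak spans 70 to 451 bp upstream. The 4 lists placed the summit within 7 bp of each other, with peak widths from 343 to 383 bp. In replicate 1 the summit was 259 bp upstream, and in replicate 2 it was 266 bp upstream. The near edge of a pseudogene on the same strand lies 163 bp beyond the far edge of the peak, and the summit fell inside no annotated gene. No annotated gene other than mog-4 had this summit in its promoter window, taken as 500 bp upstream to 100 bp downstream of an annotated 5′ end.

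Its signal was high in both replicates, though its rank was not the same in each. In the conservative list the mog-4 signal was 4705, rank 6 of 4149, with the peak of rank 5 at 5102 and that of rank 7 at 4659. In replicate 1 the signal was 1354, rank 35 of 3340. In replicate 2 it was 3372, rank 3 of 5333. These values were 14.5 times the median signal of replicate 1's list (93.2) and 25.8 times that of replicate 2's (131). The peak had the highest possible score in all 4 lists, 1000. The score is derived from the IDR, the irreproducible discovery rate, a measure of how well peaks hold their rank between 2 lists. The lowest score in any thresholded list is 830, at an IDR of 0.01. Elsewhere in the mog-4 window the ranked list behind the conservative list, which also holds peaks under the threshold, had 6 further entries with signals of at most 45.5.

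By rank, the promoter peak of hat-1 was the most like that of mog-4. Likeness was the Euclidean distance in log10 rank over the conservative list and the lists of the 2 replicates, among protein-coding genes with a conservative summit in the promoter window and a peak in both replicates. The nearest genes were hat-1 (distance 0.77; ranks 18, 42 and 12), which encodes a histone acetyltransferase, lin-36 (0.87; ranks 24, 90 and 9), a synthetic multivulva gene, and drh-1 (0.93; ranks 1, 50 and 1), which encodes a RIG-I-like helicase. For mog-4 the ranks were 6, 35 and 3. All 4 peaks had a higher place in replicate 2's list than in replicate 1's, but the 3 genes were chosen by these same ranks.

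**Figure D2:**
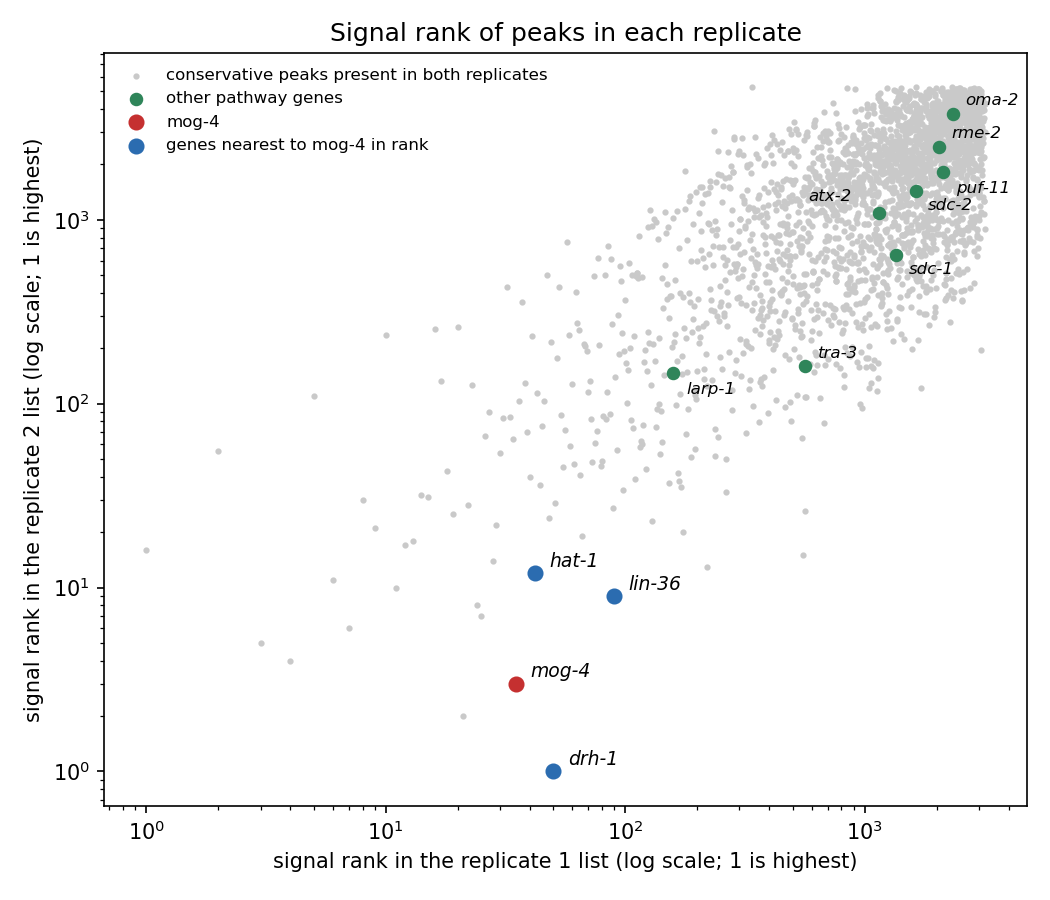
Signal rank in the replicate 1 list (x) against the replicate 2 list (y), both on log scales with 1 the highest, for the 2640 conservative peaks that overlap a peak of both replicates (grey). The mog-4 peak (red), chosen for its high signal, lies at 35 and 3. Near it are hat-1, lin-36 and drh-1 (blue), chosen for their like ranks. The leading peaks of other genes of the pathway (green), not chosen for a rank like that of mog-4, lie at rank 147 or beyond in both lists.

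The peak of mog-5 was in the conservative list, but replicate 1's own thresholded list did not hold it. The gene (WBGene00003393) lies on the plus strand of chromosome II, 5399538 to 5405810. The peak, at 5398922 to 5399126, had its summit at 5399012, which is 526 bp upstream of mog-5 and 110 bp upstream of fbxl-3, the divergent gene on the other side. These 2 genes are 635 bp apart, and the summit lies in the promoter window of fbxl-3 and just outside that of mog-5. Its conservative signal was 455, rank 1036 of 4149. In replicate 2 the signal was 418, rank 736 of 5333. In replicate 1 the ranked list had an entry with its summit 500 bp upstream, a signal of 45.7 and a score of 633, under the lowest thresholded score of 830. The summits in the 3 thresholded lists that hold the peak were within 1 bp of each other.

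The peak of mog-1 rested on replicate 2. This gene (WBGene00003389) lies on the minus strand of chromosome III, 9952060 to 9956215, and has the divergent neighbour alx-1 at a distance of 1135 bp. The longer list over both replicates had a peak at 9956158 to 9956487 with its summit 108 bp upstream of mog-1 and a signal of 229.9, rank 2217 of 6058. Replicate 2 had a narrower peak, 9956260 to 9956404, with its summit 113 bp upstream and a signal of 221, rank 1560 of 5333. Replicate 1's ranked list held 4 entries in the window, none of them at this site. In the ranked list behind the conservative list, the site had the same signal of 229.9 but a score of 84, under the 830 of the lowest listed peak.

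Sequence around the summit of each of the 3 peaks was richer in A and T than that at the median conservative peak. Over 300 bases around the summit, GC content was 38.7% at mog-4, 34.7% at mog-5 and 32.7% at mog-1. The median over all 4149 conservative peaks was 41.3%, with quartiles of 37.3% and 46.0%. By this window mog-4 lay between the quartiles and the other 2 below the lower one. At mog-5 the window runs past both edges of the peak, which is 205 bp wide. That peak alone had a GC content of 39.5%, above the lower quartile. CG dinucleotides numbered 20 at mog-4, against a median of 14, with 86.4% of conservative peaks at or below that number. The counts were 11 at mog-5 and 13 at mog-1. Runs of 5 or more A or of 5 or more T numbered 9 at mog-1, 5 at mog-4 and 2 at mog-5, against a median of 3. The mog-1 peak is not in the conservative list, so its values are set beside peaks of another list. Its 300 bases also run into the gene itself.

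Of 5 motifs searched on both strands of these 300 bases, only GAGAGA was found, and only at mog-1. There it occurred 5 times, with overlapping matches counted, while 48.6% of peaks in the longer list and 50.6% of conservative peaks had at least 1 match. Neither mog-4 nor mog-5 had a match of any of the 5. The leading peaks of hat-1, lin-36 and drh-1, the genes nearest to mog-4 in rank, all had a match of GAGAGA. The other motifs were TATAAA, found in 22.8% of conservative peaks, ACAAAG, the core bound by sequence-specific HMG-box factors (13.4%), TTCCCGC, an E2F-like sequence (5.95%), and TGGGNGGTC, similar to the site of TRA-1 (0.819%). A match is a run of letters and not a shown binding site. The absence of a match says only that these letters are not in the window.

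The genes that act on the RNA of the switch, gld-1 and fbf-1, had weak entries below the threshold. The translational repressor gene gld-1 (WBGene00001595; chromosome I, 7695681 to 7698222, plus strand) had 7 entries in the ranked list behind the conservative list. The best of them lay in a coding exon 1717 bp into the gene with a score of 583 and a signal of 67.6. Both replicates had an entry at this site, and in each it had the highest signal of the window. Its summit lay 1721 bp into the gene in replicate 1, with a score of 561 and a signal of 35.8, and 1681 bp into it in replicate 2, with a score of 118 and a signal of 33.8. The highest scores of the window lay in coding exons elsewhere, 617 in replicate 1 and 181 in replicate 2. For fbf-1 (WBGene00001401; chromosome II, 6078263 to 6080843, minus strand), the best score was 104 in that list and 133 in replicate 2, and the nearest conservative summit was 16785 bp from its start. At gld-1 that distance was 5379 bp.

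At fem-3 and tra-2, too, entries were found only under the threshold. At fem-3 (WBGene00001413; chromosome IV, 9104966 to 9107607, plus strand), which encodes the factor that promotes male and sperm fate, the best entry had a score of 580 and a signal of 66.1. Its summit lay 1140 bp upstream, inside a pseudogene. The ranked list of replicate 2 gave this site a score of 156, and replicate 1's best entry was elsewhere, past the end of the gene, with a score of 443. At tra-2 (WBGene00006605; chromosome II, 6955384 to 6965673, minus strand), the best entry in the ranked list behind the conservative list by signal had a score of 626 and a signal of 71.7. It lay beyond the end of tra-2, inside the neighbour ceh-38. A second entry with the same score and a signal of 5.44 lay in the 3′ UTR of tra-2, as did replicate 1's best entry, with a score of 117. The start of tra-2 lies only 126 bp from eif-2Bgamma, which is on the same strand. In the ranked list behind the longer list, an entry with a score of 752 had its summit 150 bp upstream of eif-2Bgamma and 2125 bp upstream of tra-2. It was the highest score under the threshold at any switch gene, with an IDR of 0.0154. None of these entries passed the threshold in any list.

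The 3 fog genes had no entry at all in the ranked list behind the conservative list. That list has 52039 entries, and 63.7% of all protein-coding genes had one in their window, as did 7 of the 10 switch genes. At fog-1 (WBGene00001481; chromosome I, 3211046 to 3217267, plus strand), whose product is a cytoplasmic polyadenylation element-binding protein, replicate 2's ranked list had 5 entries with scores of at most 229, and replicate 1's had none. The ranked list behind the longer list had 4 entries there, with scores of at most 409. No ranked list had an entry at fog-2 (WBGene00001482; chromosome V, 20199254 to 20200648, plus strand), an F-box protein gene, or at fog-3 (WBGene00001483; chromosome I, 10016765 to 10018121, plus strand), which encodes a Tob-family protein. These are also the shortest windows, 3395 bp and 3357 bp. The nearest conservative summits were 18261 bp from the start of fog-2, 18393 bp from that of fog-3 and 12016 bp from that of fog-1.

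**Figure D3:**
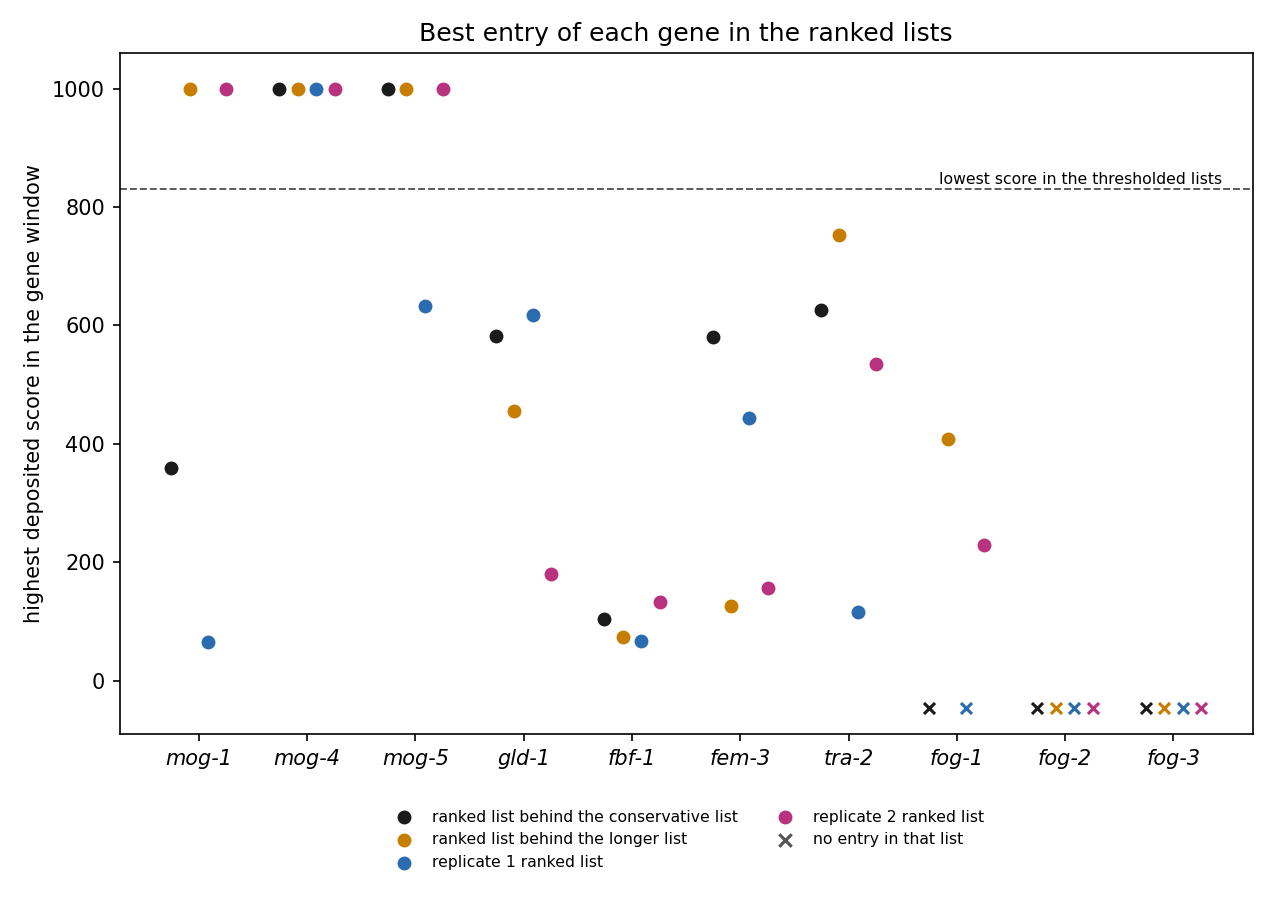
For each switch gene on the x axis, points give the highest deposited score within its window in each of the 4 ranked lists, and crosses mark lists with no entry there. The dashed line is the lowest score of the thresholded lists, 830. The score of mog-4 is 1000 in all 4 lists, that of mog-5 in 3 and that of mog-1 in 2, while the other 7 genes reach at most 752, at tra-2.

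With the narrower promoter window, mog-4 was the only switch gene with a conservative summit, 1 of 10 against 9.68% of all protein-coding genes. In replicate 1's own list it was again 1 of 10, against 6.91%. In replicate 2's own list mog-1 joined it, 2 of 10 against 13.3%, and the same 2 genes had a summit in the longer list, against 13.7%.

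Other genes of the pathway were counted in the same way as the switch genes. The 41 genes comprised 4 groups, and 14 (34.1%) had a conservative peak in the window, against the 20.2% of all protein-coding genes. Of the 41 genes, 8 (19.5%) had a conservative summit in the promoter window, against 9.68%. No test was made of these counts, which describe this list only. Their windows had a median of 5620 bp, longer than the 4027 bp over all protein-coding genes. They held 0.638 conservative peaks per 10 kb, against 0.507 over all protein-coding genes.

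Among the other mog genes and their splicing partners (mog-2, mog-3, cyn-4, mog-7, teg-4, prp-17 and mag-1), 0 of 7 had a conservative peak. In the longer list 2 of the 7 did (28.6%), cyn-4 and teg-4. Over all protein-coding genes the share was 20.2% for the conservative list and 27.4% for the longer list. A peak of teg-4 was also in replicate 1's list, and that of cyn-4 in replicate 2's.

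Of the 10 genes that set the sex of the animal, 5 had a conservative peak, against 20.2% of all protein-coding genes. These were sdc-1, sdc-2, sdc-3, tra-3 and tra-1, and the others were xol-1, her-1, sel-10, fem-1 and fem-2. The sdc genes act in X-chromosome dosage compensation as well as in sex determination. The peak of tra-3, a calpain protease gene, had a conservative signal of 1272, rank 227, with its summit 1219 bp upstream of the gene. That is outside the promoter window of tra-3 and inside that of 21ur-7402, a piRNA gene. It had rank 566 in replicate 1 and 160 in replicate 2. At sdc-1 the summit lay 304 bp upstream with a signal of 578 (rank 772), and at sdc-2 it lay 419 bp upstream with a signal of 328 (rank 1519). Another conservative peak of sdc-1, with a signal of 126.2, did not overlap a peak of both replicates. Its summit lay 2004 bp upstream of sdc-1 and within the promoter window of F52E10.6. The peak of tra-1, which encodes the zinc-finger factor at the end of the sex determination pathway, had its summit 529 bp upstream and a signal of 229.6, and replicate 1's list did not hold it. The fem-1 and fem-2 genes each had a peak in the longer list, and fem-2 also had one in replicate 2's list.

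Of the 16 RNA regulators, 4 had a conservative peak, namely larp-1, atx-2, nos-3 and gld-2. That is 25%, near the 20.2% of all protein-coding genes. The leading one was larp-1, an RNA-binding protein gene, with a signal of 1667 and rank 141, and ranks of 159 in replicate 1 and 147 in replicate 2. Its summit lay 640 bp upstream of larp-1 and within the promoter window of wip-1. A second conservative peak, in an intron of larp-1, had a signal of 595, rank 747, and overlapped a peak of both replicates. At atx-2, the ataxin-2 gene, a summit lay 40 bp upstream with a signal of 451, rank 1049, and ranks of 1153 and 1087 in replicates 1 and 2. Another conservative peak of atx-2 had a signal of 440.6, rank 1082, and overlapped a peak of both replicates. Its summit lay 641 bp upstream of atx-2 and within the promoter window of ecps-1. The nos-3 summit lay 48 bp upstream, also within the promoter window of Y53C12B.1, and replicate 1's list had no peak in the nos-3 window. The gld-2 summit lay 1582 bp upstream of gld-2 and within the promoter window of ZC308.4. The fbf-1 paralog fbf-2, the nanos genes nos-1 and nos-2, and gld-3, gls-1, puf-8, daz-1, sygl-1 and cpb-1 had no peak in any thresholded list. Peaks of rnp-8 and laf-1 were in the longer list and in replicate 2's, and lst-1 had one in replicate 2's list only. The laf-1 summits all lay inside another gene, cox-6B. Upstream summits of rnp-8 were also within the promoter window of another annotated gene, and its downstream summit in the longer list was inside icpp-55.

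Of the 8 genes of the sperm and oocyte programme, 5 had a conservative peak, against 20.2% of all protein-coding genes. These were oma-2, lin-41, rme-2, puf-5 and puf-11, and the remaining 3 were spe-44, elt-1 and oma-1. The puf-5 summit lay in its 3′ UTR and in the promoter window of F54C9.9, and replicate 2's list had no peak in the puf-5 window. The leading peak was that of puf-11, a Pumilio-type protein gene, with a signal of 259.6 (rank 1935) and its summit 164 bp upstream, which is also inside the promoter window of a pseudogene. The yolk receptor gene rme-2 followed with 220.4 (rank 2202) and a summit 70 bp upstream, and oma-2, a zinc-finger protein gene of oocyte maturation, with 148 (rank 3057) and a summit 454 bp upstream. These signals are below the conservative median of 239.8 except at puf-11. Both puf-11 and rme-2 had another conservative peak with its summit past the gene end, with signals of 186.7 and 142.3. Of the 8 leading peaks named from these 4 groups, 4 had a match of GAGAGA within the 300 bases around the summit. Over all conservative peaks the share was 50.6%, so this count is near the background.

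**Figure D4:**
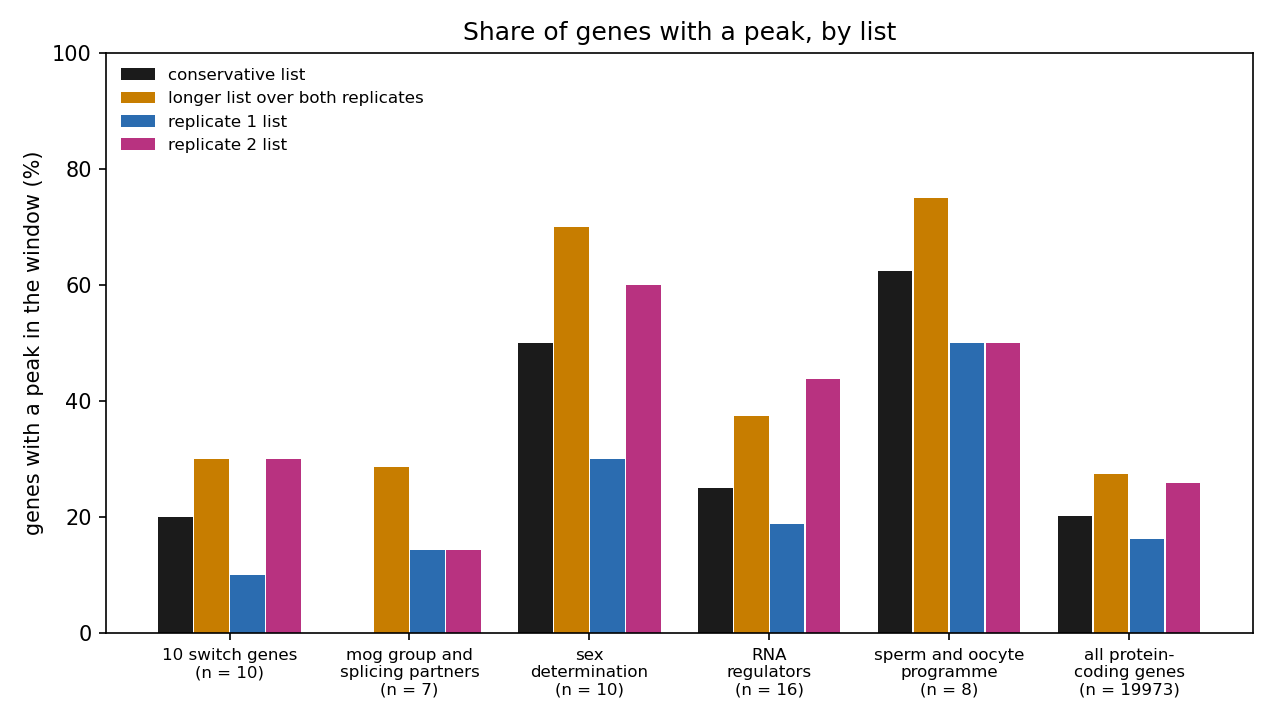
Bars give the percentage of genes with at least 1 peak from 2000 bp upstream to the gene end in each of the 4 thresholded lists, for the switch genes, 4 groups of other genes of the pathway and all protein-coding genes, with the number of genes under each group. The switch genes had a conservative peak in 2 of 10 cases, beside 20.2% of all protein-coding genes.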

How the data were processed

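Peak lists of 1 group with 2 replicates were used, all on the ce11 build per the labels. No source used here gives the aligner, the peak caller or any filter. The deposited signal of each peak is the authors' own value on an unstated scale. The deposited score, capped at 1000, derives from the IDR, and each ranked list adds the authors' −log10 of the global IDR. The read depth is unknown, so no interval is given. In the ranked lists over both replicates, 16 columns of values for the single lists compared were not used.

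Gene windows, annotated 5′ ends and places came from the Ensembl release 115 annotation (WBcel235), and every peak lay within the RefSeq chromosomes of that assembly. Positions are 1-based. Counts, ranks, motif searches and sequence windows were computed with Python 3.11.15, and the overlap code was tested on simulated peaks. All switch genes are named. Of the other genes of the pathway, the 8 with the highest conservative signal and a peak in both replicates are described with values. Outside that rule, sdc-3, tra-1, nos-3, gld-2, lin-41, puf-5 and genes without a conservative peak are named as well. The members and gene lists were chosen with earlier results of these data known, and no tests were made.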

Additional observations from a re-analysis of the deposited data

How the results depend on the processing

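The count of switch genes with a conservative peak, 2 of 10, stayed at 2 when the summit had to lie in the window, with 1000 bp upstream, with peaks at or above the median signal and with every ranked peak of a passing score, and rose to 3 with the longer list. It was 1 with the promoter window (500 bp upstream to 100 bp downstream of a 5′ end) and 1 with conservative peaks that overlap a peak of both replicates. Replicate 1's own list gave 1 and replicate 2's gave 3. The number of peaks in these windows had the same values. The promoter count of 1 became 2 with the longer list, 0 with 250 bp upstream and 50 bp downstream, 2 with 1000 bp upstream and 200 bp downstream, and 2 with 1 bp of overlap in place of the summit, an alternative chosen after seeing the data. It was 1 in replicate 1's own list and 2 in replicate 2's. The planned switch from overlap to summit was not run for it, since it already counts summits. The 14 other genes of the pathway became 21 with the longer list, 11 with 1000 bp upstream, 8 with the promoter window, 7 with peaks at or above the median signal and 9 with peaks that overlap both replicates, and 11 to 18 in the replicates' own lists. Of the switch genes, 7 had no peak under any alternative. The gene mog-4 had 1 peak under each alternative to the count of 2 of 10. Its conservative summit, 260 bp upstream, fell outside the narrowest promoter setting, where the count was 0. No paired analysis was possible because there is 1 group. Depth limits what an absent peak can show.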
